A study of Mus musculus with 18 samples.

Results

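The mitochondrial ribosomal protein genes were taken as every mouse gene whose symbol starts with Mrpl or Mrps and a number, among probe sets annotated to a single gene symbol. This gave 77 of 19937 genes on the array, 48 named for the large subunit (Mrpl) and 29 for the small subunit (Mrps). They were covered by 85 probe sets, and for the 8 genes with a pair of probe sets the one with the higher mean over all arrays was used. Mrpl53 shares its probe set with another symbol and was not analysed here.

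The mitochondrial ribosome sits in the mitochondrial matrix and translates the messenger RNAs of mitochondrial DNA, which encode core subunits of the respiratory chain and of ATP synthase. Its proteins are encoded in the nucleus, made in the cytosol and imported, and many have no counterpart in bacterial ribosomes. Brown adipocytes are packed with mitochondria that burn lipid to make heat, whereas white adipocytes store lipid and hold far fewer mitochondria.

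RNA from brown adipose tissue (BAT) and white adipose tissue (WAT) of male C57BL/6J mice was hybridised to Affymetrix mouse gene arrays, with 1 sample on each of 18 arrays. The groups were BAT of FXR mice (5 arrays), BAT of wild-type controls (5), WAT of FXR mice (4) and WAT of wild-type controls (4), all aged 10 weeks and fed chow. FXR mice overexpressed human FXR, the farnesoid X receptor, a nuclear receptor for bile acids, in adipose tissue. The promoter behind the transgene, the WAT depot and any pairing of BAT with WAT from the same animal are not given in the sources used here, and the protocol text of control BAT 2 and 4 names a feeding period of 6 weeks that the other samples lack. The question put to the family was how its signal differed between FXR and control in each tissue, and between BAT and WAT.

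All levels below are log2(intensity + 1) of the deposited intensities, changes are differences on that scale with the standard error (SE) of limma, and a gene rose or fell only where its Benjamini-Hochberg adjusted p over all 19937 genes was below 0.05. Array medians were 97.6 to 99.9 intensity units in FXR BAT, 93.1 to 97.8 in control BAT, 60.5 to 61.5 in FXR WAT and 60.7 to 61.7 in control WAT, so the tissues were not on 1 common scale. No family member lay within 1.5 times an array's 1% quantile on any BAT array, but 2 to 10 members did on FXR WAT arrays and 2 to 7 on control WAT arrays. Differences of such dim genes can be compressed. Ucp1, the uncoupling protein of brown fat, read 12.61 to 13.00 in FXR BAT, 13.09 to 13.42 in control BAT, 5.75 to 6.01 in FXR WAT and 5.73 to 5.86 in control WAT, so it was high on all BAT arrays and near the floor on all WAT arrays. Nr1h4, the mouse gene of FXR, differed by 0.049 ± 0.034 in BAT (limma adjusted p = 0.408) and 0.035 ± 0.044 in WAT (limma adjusted p = 0.834); whether this probe set reads the human transgene was not tested. Skeletal muscle transcripts set some BAT arrays apart: the mean of 25 muscle markers was 10.52, 9.96, 7.08, 10.48 and 8.42 on FXR BAT 1 to 5, against 7.79, 7.77, 8.66, 7.16 and 6.99 on control BAT 1 to 5.

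In BAT, most of the family was lower with FXR. Of the 77 genes 48 fell and 0 rose, while 8.75% of all genes fell and 7.01% rose in the same limma test. At an unadjusted p below 0.05, 60 members were lower and 0 higher, beside 14.4% and 13.8% of all genes. The estimate was below 0 for 74 of 77 members. The changes were small: their median was -0.20, a change of -13.0%, where the median over all genes was 0.011, and the members ranged from -0.53 (Mrps18a) to 0.077 (Mrps6). Every FXR array lay below every control array for 33 of 77 members, as it did for 6.29% of all genes, and the opposite held for 0 members, beside 5.89% of all genes. The number of arrays limits the precision, and in pieces of whole tissue fewer cells of a type and less RNA per cell cannot be told apart.

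**Figure D1:**
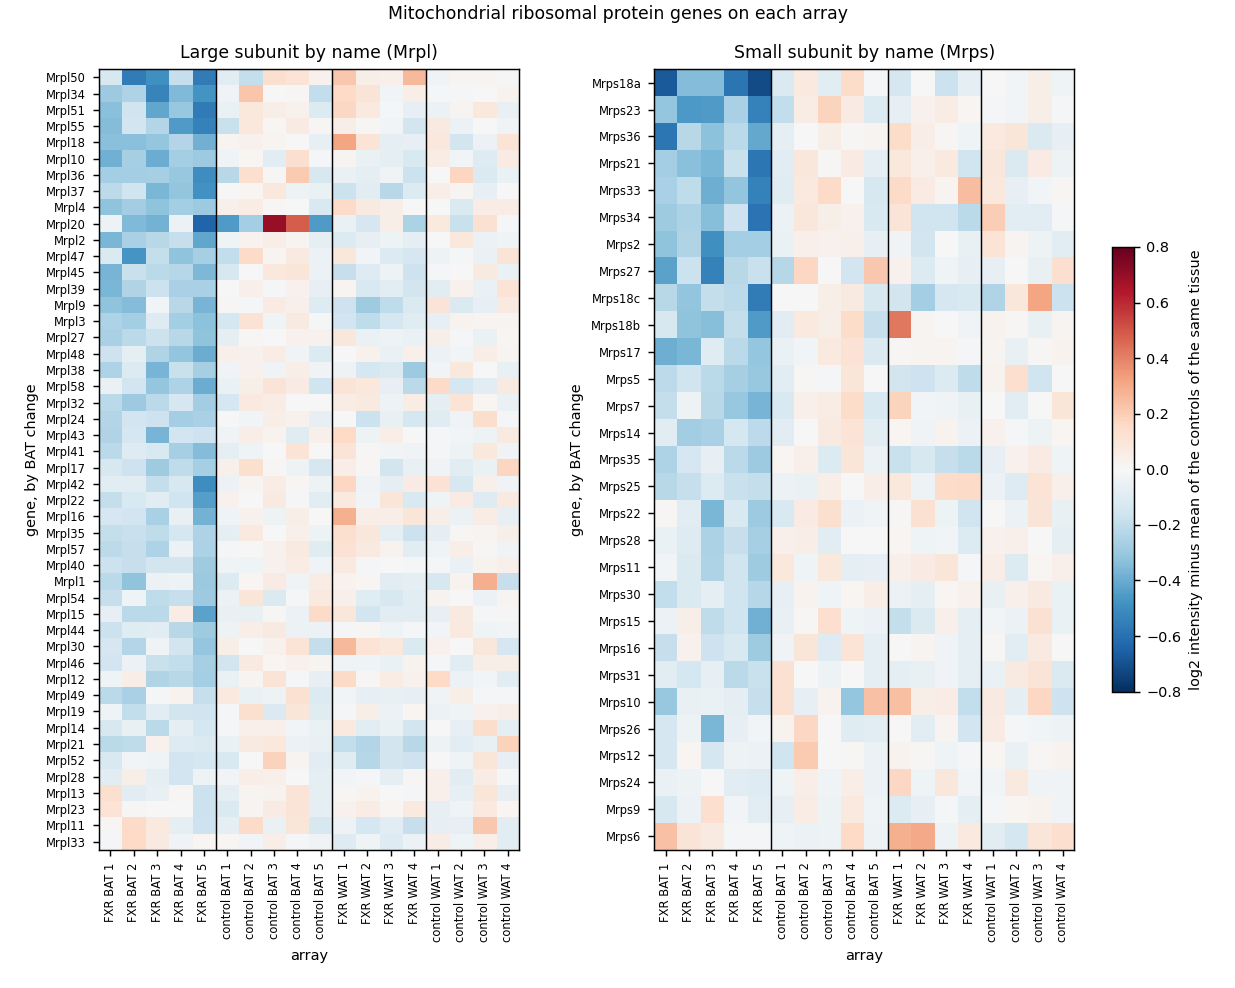
Each cell is a gene's log2 intensity on an array minus its mean over the control arrays of the same tissue, with arrays along the horizontal axis and genes sorted by their BAT change down the vertical axis. The 5 FXR BAT columns are blue (lower) for most of the 77 genes, FXR BAT 5 is the lowest array of its group for 46 of them, and the FXR WAT columns show no common colour.

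Mrpl18, whose bacterial counterpart sits in the central protuberance of the large subunit, had the smallest adjusted p. It read 10.00, 10.00, 10.02, 10.10 and 9.95 on FXR BAT 1 to 5, against 10.35, 10.37, 10.36, 10.33 and 10.27 on control BAT 1 to 5. The groups did not overlap and the lowest control lay above the highest FXR array. Mrpl18 fell by 0.32 ± 0.035 (limma adjusted p = 0.000185), a change of -20.0%. Mrps18a, which despite its name occupies the large subunit in the mitochondrial ribosome, had the largest fall of the family. It read 8.50, 8.82, 8.82, 8.58 and 8.45 on FXR BAT 1 to 5, against 9.05, 9.25, 9.08, 9.31 and 9.15 on control BAT 1 to 5. Every FXR array was again lower than every control array, and FXR BAT 1, 4 and 5 were the lowest. Mrps18a fell by 0.53 ± 0.083 (limma adjusted p = 0.00157), a change of -30.9%.

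Mrpl4, a protein lining the peptide exit tunnel in bacterial ribosomes, read 8.93, 8.97, 8.93, 8.98 and 8.96 on FXR BAT 1 to 5, against 9.29, 9.31, 9.26, 9.26 and 9.13 on control BAT 1 to 5. The FXR arrays stood within a narrow band below all controls, and Mrpl4 fell by 0.30 ± 0.037 (limma adjusted p = 0.000373). Mrpl10, which holds the factor-binding stalk, read 9.40, 9.52, 9.39, 9.51 and 9.49 on FXR BAT 1 to 5, against 9.74, 9.80, 9.69, 9.91 and 9.77 on control BAT 1 to 5. These groups also stayed apart, with a fall of 0.32 ± 0.046 (limma adjusted p = 0.000925). Mrpl39, a large-subunit protein that bacteria lack, read 10.18, 10.31, 10.38, 10.29 and 10.29 on FXR BAT 1 to 5, against 10.54, 10.59, 10.54, 10.59 and 10.48 on control BAT 1 to 5. It fell by 0.26 ± 0.039 (limma adjusted p = 0.00139), with no overlap.

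Of the other members with the smallest adjusted p, Mrpl27, a neighbour of the peptidyl transferase centre in bacteria, fell by 0.24 ± 0.036, Mrpl24 by 0.22 ± 0.035 and Mrpl2, a core protein of the same centre, by 0.29 ± 0.049. The small-subunit proteins among them, both with bacterial counterparts, were Mrps2 with a fall of 0.32 ± 0.049 and Mrps5 with 0.23 ± 0.040. For these 5 genes no FXR array reached the lowest control array, and the limma adjusted p lay between 0.00129 and 0.00289.

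The genes named Mrps include proteins that do other work. Mrps30, like Mrps18a a large-subunit protein by structure, fell by 0.16 ± 0.037 (limma adjusted p = 0.0162). Mrps36, now known as a component of the ketoglutarate dehydrogenase complex of the citric acid cycle, read 9.29, 9.65, 9.54, 9.65 and 9.46 on FXR BAT 1 to 5, against 9.79, 9.87, 9.92, 9.88 and 9.89 on control BAT 1 to 5. It fell by 0.35 ± 0.065 (limma adjusted p = 0.00429), without overlap. The 3 Mrps18 paralogs all fell, Mrps18b by 0.29 ± 0.075 and Mrps18c by 0.30 ± 0.070 beside Mrps18a. Mrps18b passed with an adjusted p of 0.0241 but not without control BAT 2 (0.0644), control BAT 3 (0.0558), control BAT 4 (0.0620) or FXR BAT 5 (0.0550). Mrpl58, a peptidyl-tRNA hydrolase that rescues stalled ribosomes, changed by -0.23 ± 0.069 (limma adjusted p = 0.0425); without control BAT 1, 2, 3 or 4 or FXR BAT 3, 4 or 5 it no longer passed.

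A minority of members did not follow. Mrpl12, a stalk protein also reported to bind the mitochondrial RNA polymerase, differed by -0.14 ± 0.065 (limma adjusted p = 0.179). It read 9.16, 9.25, 8.96, 8.98 and 8.93 on FXR BAT 1 to 5, against 9.15, 9.22, 9.30, 9.19 and 9.13 on control BAT 1 to 5, so that FXR BAT 1 and 2 lay among the controls; without FXR BAT 2 its limma adjusted p was 0.0449. Estimates above 0 came from Mrps6 at 0.077 ± 0.056, Mrpl33 at 0.039 ± 0.040 and Mrpl11 at 0.00020 ± 0.070, with limma adjusted p of 0.428, 0.596 and 0.999. Mrps6 read 8.98, 8.85, 8.81, 8.73 and 8.73 on FXR BAT 1 to 5, against 8.71, 8.70, 8.70, 8.90 and 8.71 on control BAT 1 to 5, and the groups overlapped. Mrpl20 was the noisiest member: it read 8.19, 7.88, 7.86, 8.19 and 7.59 on FXR BAT 1 to 5, against 7.78, 7.96, 8.93, 8.72 and 7.78 on control BAT 1 to 5, giving -0.29 ± 0.23 (limma adjusted p = 0.473). Mrps6, Mrpl33, Mrpl11 and Mrpl20 were singled out after their values were seen.

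The fall was spread over the ribosome. By name, 32 of 48 large-subunit genes fell with a median change of -0.21, and 16 of 29 small-subunit genes with a median of -0.19. Sorted by structure, 34 of 50 large-subunit and 13 of 26 small-subunit genes fell, with medians of -0.21 and -0.18. All 6 proteins listed for the central protuberance fell (Mrpl18, Mrpl27, Mrpl38, Mrpl40, Mrpl46 and Mrpl48), a list that may not hold every protein of that region. So did 3 of 5 listed around the exit tunnel, a list that leaves out Mrpl4, and 2 of 4 of the stalk. Mrpl46 lost its call without control BAT 2, 3, 4 or 5 or FXR BAT 1, 3, 4 or 5, and Mrpl48 without control BAT 2 or 3 or FXR BAT 4. Of genes with a bacterial counterpart 24 of 46 fell, with a median of -0.20, and of those without one 24 of 31, with a median of -0.21. After quantile normalization of all arrays, where 6.44% of all genes were lower, the order of these shares turned: 14 of 48 large-subunit and 11 of 29 small-subunit genes by name fell, and 17 of 46 with and 8 of 31 without a bacterial counterpart. On that scale 2 of the 6 genes listed for the central protuberance fell, with a median of -0.12 in place of -0.24. The differences between these classes were not tested.

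**Figure D2:**
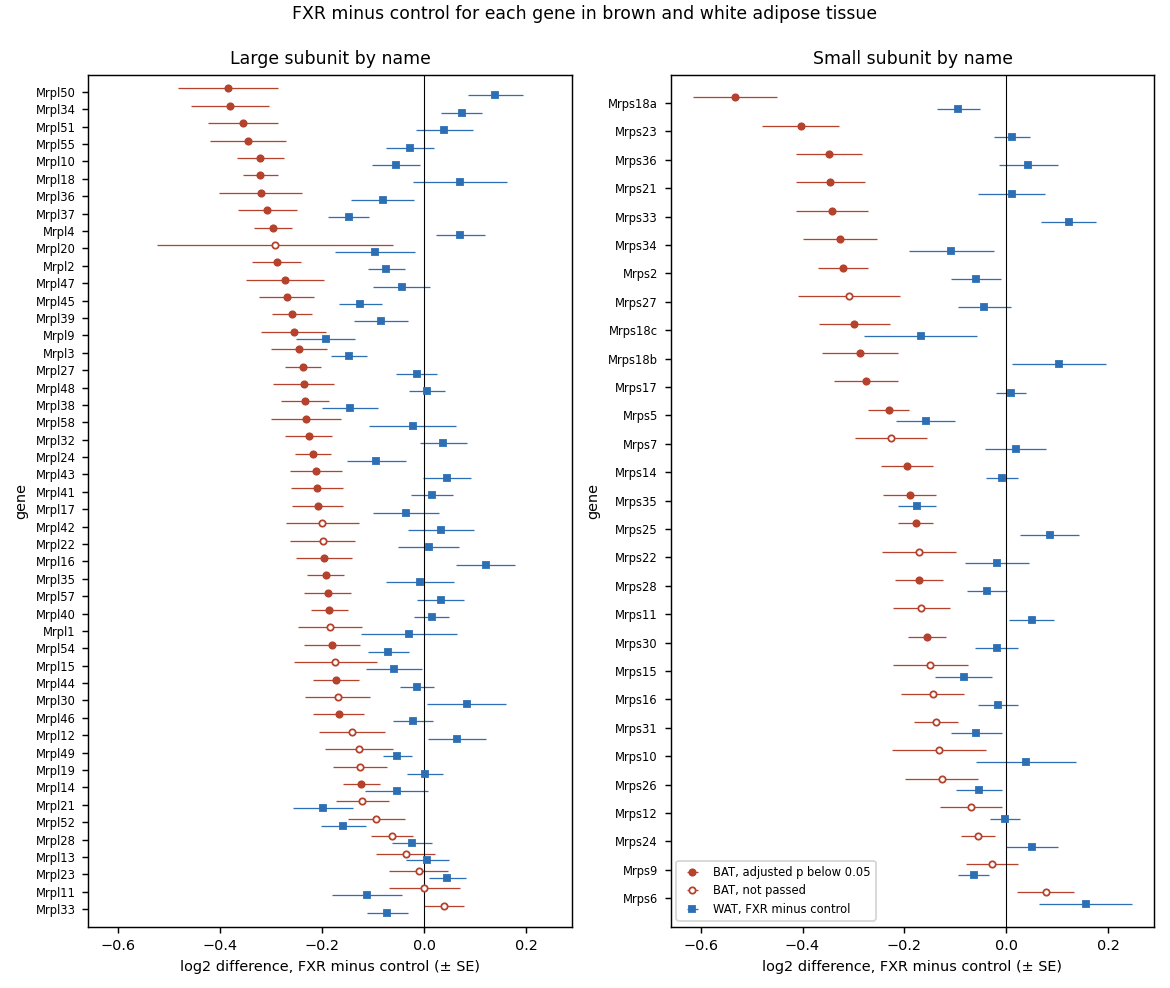
Points are the FXR minus control differences (log2, horizontal axis) of each gene with bars of ± SE, circles for BAT (filled where the adjusted p was below 0.05) and squares for WAT. In BAT 74 of 77 points lie left of 0, and in WAT 46 do.

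The second probe set of each of the 8 genes with a pair also had a BAT estimate below 0, but the sizes differed. That of Mrpl47 was near 0 (-0.0028 against -0.27 for the one used) and that of Mrpl41 smaller (-0.081 against -0.21). The second was further below 0 for Mrpl23 (-0.056 against -0.011) and Mrpl51 (-0.385 against -0.355). Mrpl47 passed in BAT as deposited but not with the mean of its probe sets. The reference gene table lists pseudogenes of Mrpl23, Mrpl27, Mrpl48 and Mrps36, so the signal of these genes may include a near-identical copy and their values are uncertain to that extent.

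The size of the BAT change depended on the scaling, and the number of calls on the scaling and on which arrays were included. Centring each array on its median gave 65 lower members (20.4% of all genes lower and 3.89% higher) with 77 estimates below 0, and 16% of all calls were then higher, beside 44.5% as deposited. Quantile normalization of all 18 arrays gave 25 lower (6.44% of all genes lower and 5.47% higher) and a median of -0.13. Quantile normalization within each tissue gave 26 (6.55% of all genes lower and 5.61% higher). The estimate of 73 members was below 0 in each of these. Without control BAT 2 and 4, 16 members were lower with a median of -0.19, and 3.57% of all genes were then lower and 3.53% higher. Without FXR BAT 1, 2 and 4, which had the highest muscle signal of their group, 41 were lower with a median of -0.25 (4.98% of all genes lower and 4.61% higher), in a fit with 2 FXR arrays. In every one of these settings 0 members were higher and the 48 genes kept an estimate below 0, and 10 of them kept their call in every setting run: Mrpl2, Mrpl4, Mrpl10, Mrpl18, Mrpl27, Mrpl34, Mrps2, Mrps5, Mrps18a and Mrps36.

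Promoters of 4 genes are shown because they belong to members that fell in BAT and hold the motifs found more often in this family than in other promoters. RefSeq promoter windows (GRCm38.p6, 250 bases before to 50 after each transcription start) were given for 68 of the 77 genes, in 74 windows. Searched on both strands were CCGGAAG (ETS factors such as GABP), AAGATGGC (YY1), the palindromic NRF1 motif, GGGCGG (GC box), AAGGTCA (the estrogen-related receptor site) and the inverted repeat spaced by 1 base that FXR binds. Each sequence below reads 5′ to 3′ on the strand of its gene, in lower case with matches to the ETS, YY1 and NRF1 motifs in capitals. Mrpl18 (chr17:12916042-12916341, minus strand) has an ETS match starting 240 bases before its start site. Mrpl39 (chr16:84735195-84735494, minus strand) has an NRF1 match 125 bases before it. Mrps18a (chr17:46110754-46111053, plus strand) has an ETS match 26 bases before it and a YY1 match 11 bases after it. Mrpl37 (chr4:107066817-107067116, minus strand), a mitochondria-specific large-subunit protein that fell by 0.31 ± 0.058 in BAT (limma adjusted p = 0.00495), has a YY1 match 26 bases after it.
Mrpl18: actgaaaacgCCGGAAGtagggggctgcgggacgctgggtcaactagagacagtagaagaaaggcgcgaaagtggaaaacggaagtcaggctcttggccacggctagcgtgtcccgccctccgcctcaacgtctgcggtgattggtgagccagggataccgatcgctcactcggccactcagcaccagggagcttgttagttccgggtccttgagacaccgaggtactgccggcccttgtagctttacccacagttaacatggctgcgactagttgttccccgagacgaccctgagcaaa
Mrpl39: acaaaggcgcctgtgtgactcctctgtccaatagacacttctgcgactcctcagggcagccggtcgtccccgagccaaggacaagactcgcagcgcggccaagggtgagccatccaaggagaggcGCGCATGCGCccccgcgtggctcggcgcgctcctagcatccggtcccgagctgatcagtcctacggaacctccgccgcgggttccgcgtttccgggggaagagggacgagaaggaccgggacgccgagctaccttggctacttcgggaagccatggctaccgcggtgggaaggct
Mrps18a: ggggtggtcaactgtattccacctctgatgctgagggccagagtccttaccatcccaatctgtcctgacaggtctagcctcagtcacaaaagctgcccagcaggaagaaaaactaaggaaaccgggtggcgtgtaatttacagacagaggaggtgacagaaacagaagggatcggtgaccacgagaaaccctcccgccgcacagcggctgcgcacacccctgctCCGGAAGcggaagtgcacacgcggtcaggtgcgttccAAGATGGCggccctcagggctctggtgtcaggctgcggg
Mrpl37: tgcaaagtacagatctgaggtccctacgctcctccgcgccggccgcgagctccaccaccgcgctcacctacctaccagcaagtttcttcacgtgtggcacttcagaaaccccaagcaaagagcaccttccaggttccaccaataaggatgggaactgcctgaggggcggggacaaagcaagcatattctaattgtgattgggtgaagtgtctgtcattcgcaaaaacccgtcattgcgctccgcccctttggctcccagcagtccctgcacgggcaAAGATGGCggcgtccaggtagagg

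The ETS motif stood in 33.8% of the family's windows, beside 8.86% of all windows and 11.6% of those of protein-coding genes. The YY1 motif stood in 16.2% (2.75% of all, 3.05% of coding), the NRF1 motif in 4.05% (0.971% and 1.33%) and the GC box in 52.7% (35.7% and 46.2%). The estrogen-related receptor site stood in 5.41% (4.72% and 4.08%), and the inverted repeat in 0 of 74 windows (0.00913% and 0.0047%). Matches of different motifs overlapped in 2 windows, and none of these overlaps was between the ETS, YY1 and NRF1 motifs. Median GC content was 58.5% in the family's windows, 52.7% in all and 56.3% in coding ones. Of genes with the ETS motif 16 of 25 fell in BAT, with a median change of -0.24, and of genes without it 26 of 43, with a median of -0.19. Of genes with the YY1 motif 5 of 12 fell, and without it 37 of 56. A match is a stretch of letters and was not tested as a binding site.

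In WAT no family member passed as deposited. The limma test called 0 of 77 higher and 0 lower, where 0.873% of all genes rose and 0.456% fell. At an unadjusted p below 0.05, 2 members were higher and 9 lower, beside 7.03% and 5.47% of all genes. Counts were also 0 and 0 after centring (0.973% and 0.657% of all genes), and 0 higher and 1 lower after quantile normalization of all arrays (1.15% and 0.687%). The median change of the family was -0.019 (all genes 0.0010), with a range of -0.20 (Mrpl21) to 0.16 (Mrps6). Every FXR array lay below every control array for 6 members, beside 3.47% of all genes, and above for 1 member, Mrpl50 (4.31% of all genes); Mrpl50 was singled out after its values were seen.

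The smallest p in WAT belonged to Mrps35, a small-subunit protein without a bacterial counterpart. It read 6.36, 6.41, 6.35 and 6.32 on FXR WAT 1 to 4, against 6.47, 6.57, 6.60 and 6.50 on control WAT 1 to 4. The groups did not overlap, and the difference was -0.18 ± 0.038 (limma adjusted p = 0.0637). Mrps35 passed with limma after quantile normalization of all arrays (adjusted p = 0.0495) or within the tissue (0.0413). Mrpl3, a core large-subunit protein, read 6.76, 6.71, 6.77 and 6.82 on FXR WAT 1 to 4, against 6.84, 6.94, 6.93 and 6.93 on control WAT 1 to 4, a difference of -0.15 ± 0.035 (limma adjusted p = 0.0948). FXR WAT 4 and control WAT 1 nearly met, and Mrpl3 passed only after quantile normalization within WAT (0.0454). Mrpl37 read 6.86, 6.94, 6.81 and 6.92 on FXR WAT 1 to 4, against 7.08, 7.06, 6.97 and 7.03 on control WAT 1 to 4, a difference of -0.15 ± 0.040 (limma adjusted p = 0.133). Mrpl52 and Mrpl21 followed, at -0.16 ± 0.044 and -0.20 ± 0.059 with limma adjusted p of 0.143 and 0.169, and both also had FXR arrays wholly below the controls. In BAT, Mrpl3 fell by 0.245 ± 0.055 and Mrps35 by 0.19 ± 0.052, with limma adjusted p of 0.0122 and 0.0304; the call of Mrps35 was lost without control BAT 1, 2 or 4 or FXR BAT 1, 4 or 5.

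The difference between the tissues' responses was tested itself, as the WAT change minus the BAT change over all 18 arrays. It was above 0 for 72 of 77 members, with a median of 0.18 (all genes -0.0087). The difference passed with limma for 19 members in the positive direction, meaning a less negative or more positive change in WAT, and for 0 in the negative one, beside 4.44% and 2.02% of all genes. At an unadjusted p below 0.05 there were 39 and 0 members, beside 11.3% and 8.70% of all genes. Mrpl4 had the smallest p: its change was 0.071 ± 0.048 in WAT and -0.30 ± 0.037 in BAT, a difference of 0.37 ± 0.060 (limma adjusted p = 0.00164). Mrpl4 read 7.11, 7.03, 7.02 and 6.96 on FXR WAT 1 to 4, against 6.96, 6.84, 7.02 and 7.02 on control WAT 1 to 4, so its WAT groups overlapped where its BAT groups did not.

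Mrps33 and Mrps23, small-subunit proteins without a bacterial counterpart, came next among small-subunit genes. Mrps33 changed by 0.12 ± 0.054 in WAT and -0.34 ± 0.070 in BAT, a difference of 0.46 ± 0.097 (limma adjusted p = 0.00818). Mrps23 changed by 0.011 ± 0.035 in WAT and -0.40 ± 0.076 in BAT, a difference of 0.41 ± 0.095 (limma adjusted p = 0.0136). Mrpl34, with a bacterial counterpart, changed by 0.074 ± 0.040 in WAT and -0.38 ± 0.077 in BAT, a difference of 0.45 ± 0.098 (limma adjusted p = 0.00972). Mrps36 changed by 0.043 ± 0.058 in WAT and -0.35 ± 0.065 in BAT, a difference of 0.39 ± 0.093 (limma adjusted p = 0.0165). The count of 19 was 12 without control WAT 2 (3.46% of all genes positive and 1.56% negative) and 11 without FXR WAT 1 (3.14% and 1.41%). It was 29 after centring (8.16% of all genes positive and 1.23% negative), where 86.9% of all calls were positive, beside 68.7% as deposited. It was 5 after quantile normalization within each tissue (2.97% of all genes positive and 1.97% negative). After quantile normalization of all arrays it was 0 (2.63% and 1.73% of all genes), where 19 members had an unadjusted p below 0.05 and Mrpl4 had a limma adjusted p of 0.0614. Low signal can compress changes, and 2 to 10 members were near the floor on FXR WAT arrays and 2 to 7 on control WAT arrays. The part of low signal in this difference was not tested. Across the 77 members the BAT and WAT changes had a Pearson correlation of 0.016 and a Spearman correlation of -0.011, given as a description over genes; no array enters both.

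Between tissues, every member had higher signal in BAT than in WAT on the deposited scale. All 77 were higher in control BAT than in control WAT, with a median difference of 1.98, and all 77 in FXR BAT over FXR WAT, with a median of 1.82. These counts carry little by themselves, since 94.8% and 95.1% of all genes were higher in BAT on the deposited scale (1.98% and 1.29% lower) and the median gene differed by 0.59 and 0.63. Centring on the array median moved the median gene to -0.072 and -0.10. On that scale 76 members were higher and 0 lower in control BAT than in control WAT, with a median of 1.32, beside 36.2% of all genes higher and 46.8% lower. For FXR BAT over FXR WAT 76 were higher and 1 lower, with a median of 1.10, beside 32.1% and 48.6%. After quantile normalization of all arrays 70 were higher and 1 lower between the control tissues (23.6% and 34.4% of all genes), with a median of 0.74, and 65 and 1 between the FXR tissues (21.3% and 34.1%), with a median of 0.70.

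**Figure D3:**
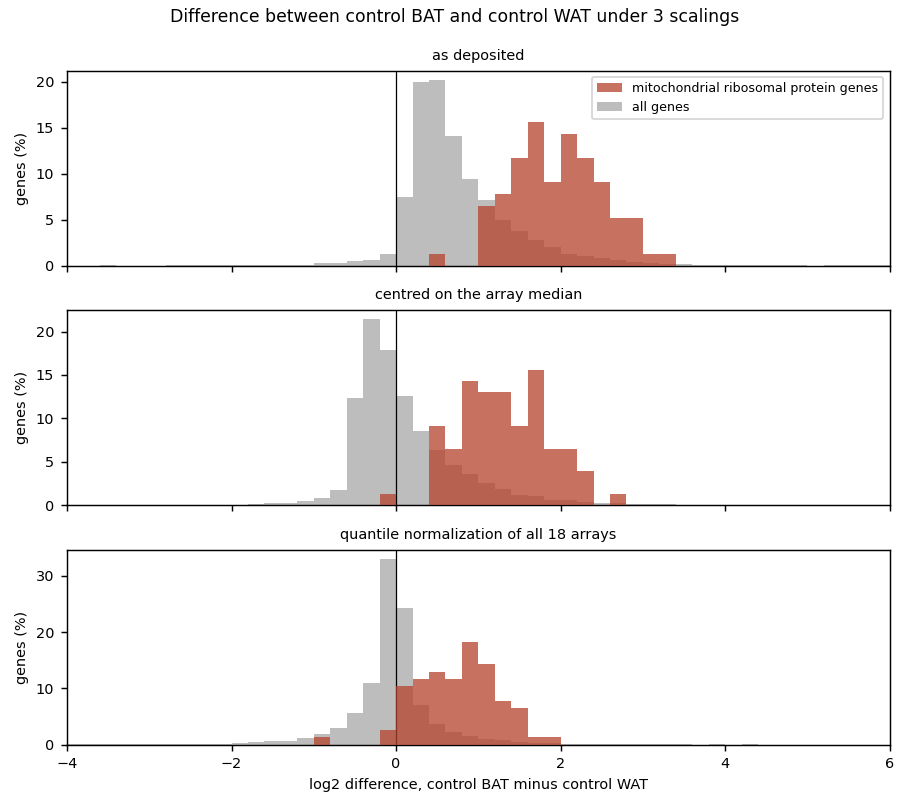
Histograms of the log2 difference control BAT minus control WAT (horizontal axis) as the percent of genes per bin of the 77 family members and of all genes, under 3 scalings. Centring moves the median of all genes from 0.59 to -0.072, and the family's median from 1.98 to 1.32.

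Under the other scalings, the member that was called lower was Mrps6, singled out after its values were seen. After quantile normalization further members passed in neither direction, and the estimate was below 0 for 3 members between the control tissues and for 6 between the FXR tissues. It read 8.98, 8.85, 8.81, 8.73 and 8.73 in FXR BAT and 8.71, 8.70, 8.70, 8.90 and 8.71 in control BAT, with 8.47, 8.50, 8.15 and 8.27 in FXR WAT and 8.10, 8.05, 8.29 and 8.33 in control WAT. Its tissue difference was the family's lowest, 0.55 ± 0.066 between the control tissues and 0.47 ± 0.080 between the FXR tissues, after centring it was -0.11 and -0.25, and after quantile normalization it was -0.91 and -0.86. The 5 members with the smallest adjusted p between the control tissues were Mrpl38 (2.62 ± 0.037), Mrps36 (3.28 ± 0.050), Mrpl39 (2.87 ± 0.045), Mrpl51 (2.93 ± 0.049) and Mrpl16 (2.32 ± 0.039). Between the FXR tissues they were Mrpl24 (2.70 ± 0.044), Mrpl39 (2.70 ± 0.047), Mrpl4 (1.93 ± 0.034), Mrps5 (1.99 ± 0.036) and Mrps31 (1.94 ± 0.036). All of these had limma adjusted p of at most 8.45e-11, and all but Mrps31 fell in BAT with FXR, Mrpl16 losing that call without control BAT 1, 2, 4 or 5 or FXR BAT 3. Each tissue contrast shares its BAT arrays with that test, in which 48 of all 77 members fell, so this overlap is no separate result.

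The family's mean level per array showed the same grouping. It was 8.60, 8.62, 8.58, 8.61 and 8.48 on FXR BAT 1 to 5, against 8.73, 8.82, 8.82, 8.83 and 8.73 on control BAT 1 to 5. In WAT it was 6.86, 6.79, 6.79 and 6.75 on FXR WAT 1 to 4, against 6.82, 6.80, 6.84 and 6.81 on control WAT 1 to 4. All 5 FXR BAT means lay below all control BAT means, and the WAT means overlapped. FXR BAT 5 was the lowest array of its group for 46 of 77 members.

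**Figure D4:**
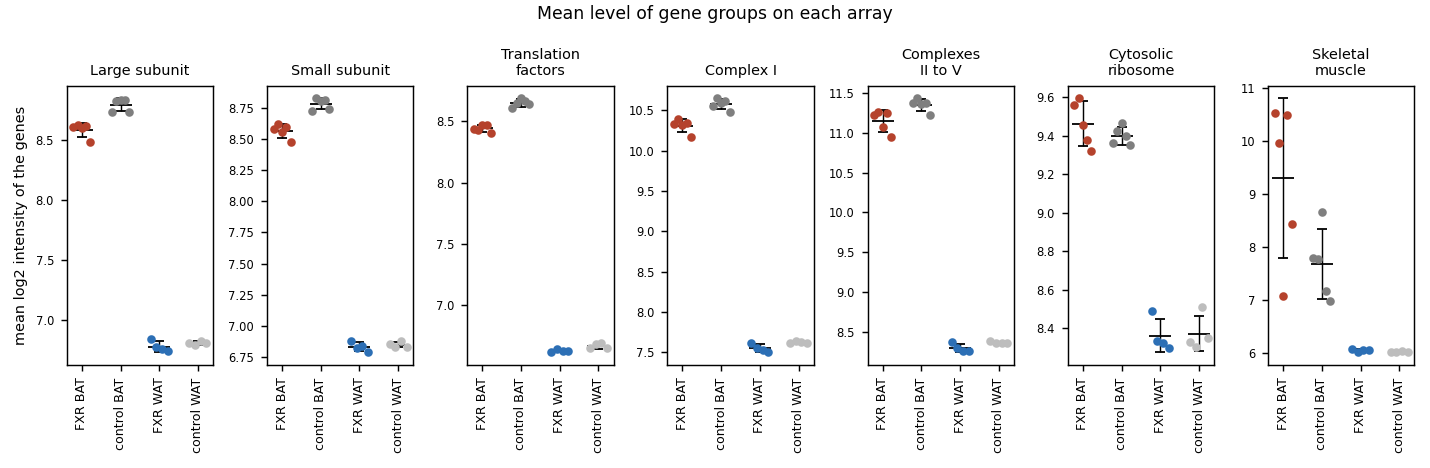
Points are the mean log2 intensity of each gene group on 1 array (vertical axis, a scale of its own per panel), with a line at the group mean and bars of ± SD over arrays (n = 5, 5, 4 and 4). The FXR BAT points lie below the control BAT points in both subunits of the mitochondrial ribosome and overlap them for the cytosolic ribosome.

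Other genes of mitochondrial gene expression fell in BAT as well, where 8.75% of all genes fell and 7.01% rose. Of 17 mitochondrial translation factors 11 fell (median change -0.24), among them Gfm1, an elongation factor, by 0.32 ± 0.053, Mtres1, a rescue factor, by 0.26 ± 0.051 and Taco1, an activator of the translation of a cytochrome oxidase subunit, by 0.28 ± 0.055. Of 16 mitochondrial aminoacyl-tRNA synthetases 11 fell (median -0.18), led by those for tyrosine (Yars2, by 0.35 ± 0.036), isoleucine (Iars2, by 0.40 ± 0.057) and alanine (Aars2, by 0.26 ± 0.037). Of 28 assembly factors and rRNA-modifying enzymes of the mitochondrial ribosome 13 fell and 1 rose (median -0.14): Fastkd2, Mpv17l2 and Eral1 fell by 0.37, 0.43 and 0.33, and Mettl15, picked out once its value was known, rose by 0.22. Of 4 further ribosome components with other names Gadd45gip1 and Ptcd3 fell, by 0.18 and 0.24. After quantile normalization of all arrays 4 translation factors fell (median -0.15) and 8 synthetases (-0.13), beside 6.44% of all genes. The counts were 10 for assembly factors (-0.10) and 0 for the 4 further components.

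Upstream and downstream of translation, of 20 genes that maintain and transcribe mitochondrial DNA or process its RNA 10 fell (median -0.23), including the RNA-binding Fastk by 0.33 and Tbrg4 by 0.52, the RNA polymerase Polrmt by 0.31 and the DNA-packaging factor Tfam by 0.23 ± 0.062 (limma adjusted p = 0.0293). Of 19 genes of import and mitochondrial mass 15 fell (median -0.29), including the import channel Tomm40 by 0.38, the fusion protein Mfn2 by 0.26 and the prohibitin Phb2 by 0.36. Complex I, part of whose subunits the mitochondrial ribosome makes, had 27 of 35 measured nuclear genes lower (median -0.27), among them Ndufs7, Ndufc1 and Ndufb8 by 0.40, 0.42 and 0.25. Complexes II to V had 27 of 43 lower (median -0.24), with Cox7a1, Cox8b and Sdhd lower by 0.43, 0.42 and 0.39. Of all genes 8.75% were lower as deposited. After quantile normalization of all arrays 6 genes of mitochondrial DNA and RNA fell (median -0.16) and 7 of import and mass (-0.15). So did 11 of complex I (-0.13) and 9 of complexes II to V (-0.074), beside 6.44% of all genes. In WAT, as deposited, 0 genes of these lists passed, apart from Uqcrc2 and Sdha of complexes II to V, which fell by 0.36 ± 0.045 and 0.34 ± 0.064 (limma adjusted p = 0.0114 and 0.0422). The limma test called 0.456% of all genes lower there and 0.873% higher. At an unadjusted limma p below 0.05, 9 of 35 complex I genes were lower and 1 higher. For complexes II to V these were 8 and 1 of 43, beside 5.47% and 7.03% of all genes. WAT estimates were below 0 for 27 complex I genes and 32 of complexes II to V. They were below 0 for 15 of 16 synthetases, 17 of 20 mitochondrial DNA and RNA genes, and 9 of 19 import and mass genes.

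Cytosolic ribosomal proteins, which serve translation outside mitochondria, had calls that depended on the scaling. As deposited, of 62 genes 2 rose in BAT (Rps4x by 0.22 and Rps3a1 by 0.27) and 1 fell (Rpl7l1 by 0.26). Of all genes 7.01% rose and 8.75% fell. After centring 0 rose and 5 fell, beside 3.89% and 20.4% of all genes. After quantile normalization of all arrays 14 rose and 0 fell, beside 5.47% of all genes higher and 6.44% lower. Their median change was 0.077 as deposited, -0.0013 after centring and 0.16 after quantile normalization, so its sign also depended on the scaling. In WAT 0 of 62 passed with limma, where 0.873% of all genes rose and 0.456% fell. At an unadjusted limma p below 0.05, 0 were higher and 2 lower, beside 7.03% and 5.47% of all genes.

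**Figure D5:**
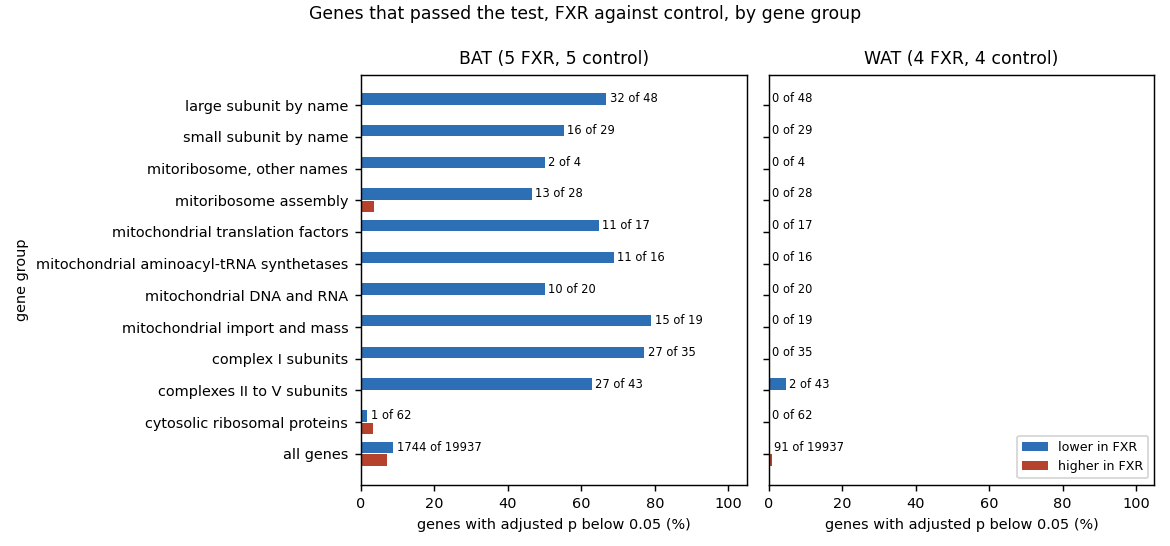
Bars give the percent of each gene group (horizontal axis) that was lower or higher in FXR than in control at an adjusted p below 0.05, in BAT and WAT, with the count of lower genes beside each bar. In BAT the lower share is 66.7% of large-subunit and 55.2% of small-subunit genes, against 8.75% of all genes.

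Of nuclear regulators of mitochondrial genes, 4 of 14 fell and 1 rose in BAT, beside 8.75% and 7.01% of all genes. After quantile normalization of all arrays 5 fell and 1 rose, beside 6.44% and 5.47% of all genes. Ppargc1a, the coactivator that drives mitochondrial biogenesis in brown fat, read 8.09, 8.30, 8.34, 8.37 and 8.29 on FXR BAT 1 to 5, against 9.03, 9.21, 9.26, 9.23 and 8.54 on control BAT 1 to 5. Control BAT 5 stood closest to the FXR arrays without meeting them, and Ppargc1a fell by 0.78 ± 0.12 (limma adjusted p = 0.00195). Esrra, the estrogen-related receptor that works with it, fell by 0.36 ± 0.066 (limma adjusted p = 0.00405), as did Nfe2l1 by 0.36 and, named after its values were seen, Ppargc1b by 0.46. Myc, named likewise, rose by 0.63. The other factors whose motifs were searched and that the rule names did not pass in BAT: Nrf1 differed by 0.057 ± 0.064, Gabpa by -0.23 ± 0.11 and Yy1 by -0.068 ± 0.044, with limma adjusted p of 0.640, 0.209 and 0.365. In WAT Ppargc1a differed by -0.068, Esrra by -0.039 and Tfam by -0.057, with limma adjusted p of 0.473, 0.771 and 0.689.

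Markers of cell types also differed between FXR and control BAT, where 8.75% of all genes fell and 7.01% rose. Of 15 brown adipocyte markers 12 fell and 0 rose, led by Otop1, Cox7a1 and Dio2 (Cox7a1, Cox8b and Ppargc1a are in this list too), and their summed intensity was 24600 to 28300 in FXR BAT, against 34500 to 41700 in control BAT. Of 14 mature adipocyte markers 11 fell, led by Lipe, Gpd1 and Plin1, with sums of 44300 to 49200 in FXR BAT and 53800 to 62700 in control BAT. After quantile normalization of all arrays 10 of the brown and 2 of the mature adipocyte markers fell, with medians of -0.36 and -0.15. Of all genes 6.44% were lower on that scale. Of 18 macrophage markers 17 rose, led by Gpnmb, Csf1r and Cybb, with sums of 4510 to 5290 in FXR BAT and 2370 to 3140 in control BAT. Of 13 fibroblast and progenitor markers 11 rose, led by Pcolce, Pdgfra and Thy1, with sums of 12800 to 15200 in FXR BAT and 5160 to 7930 in control BAT. Of 25 skeletal muscle markers 2 rose (Myh2 and Myh1), with sums of 3850 to 48900 in FXR BAT and 3660 to 13900 in control BAT. The estimates of all 25 were above 0, with a median of 1.72 and SE of up to 1.01. At an unadjusted limma p below 0.05, 17 of them were higher and 0 lower, beside 13.8% and 14.4% of all genes. No defining marker of these 5 cell types was near the floor on all BAT arrays of either genotype. The part of these cell types in the fall of the family was not tested. In WAT 7 of 10 defining muscle markers were near the floor on all FXR arrays and 8 of 10 on all control arrays, and 5 of 6 defining brown adipocyte markers in both. There 2 brown adipocyte markers fell, 1 mature adipocyte marker rose and 1 fell, and 1 muscle and 1 fibroblast and progenitor marker rose. Of all genes 0.873% rose and 0.456% fell in WAT. At an unadjusted limma p below 0.05, 7 of 13 fibroblast and progenitor markers were higher and 0 lower (median 0.31). For macrophage markers these were 5 and 0 of 18 (median 0.22), beside 7.03% and 5.47% of all genes.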

How the data were processed

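Total RNA of 18 samples (500 ng each, per the labels) was hybridised singly. The authors deposited 1 intensity per probe set and array, on a linear scale from 36.0 to 15980. The summary, background and normalization steps behind them are not given in the labels, and their effect on small differences was not tested. Of 34760 probe sets, 21640 had 1 symbol, 1321 several and 11799 no listed symbol; gene IDs and symbols of all 77 members matched the reference table. The deposited scale was kept, log2(intensity + 1) was taken, no gene was filtered, and lmFit and eBayes of limma 3.58.1 (R 4.3.3) were applied two-sided within BAT, within WAT, to the difference of both changes and between tissues, with Benjamini-Hochberg adjustment. The fits were tested on simulated data. Correlations between arrays of a group were 0.973 or higher. Nothing shows which samples share a litter or batch, so the tests reflect only variation among the arrays of a group.

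Members and gene lists were chosen with earlier results of these data known. Genes named were, in BAT, the 10 called members with the smallest adjusted p; in WAT the 5 smallest p; for the difference of changes and for each tissue contrast the 5 smallest; Mrps18a, Mrps18b, Mrps18c, Mrps30, Mrps36, Mrpl12 and Mrpl58; Ppargc1a, Nrf1, Gabpa, Esrra, Yy1 and Tfam; and up to 3 called genes per list. Subunit and bacterial counterparts follow general knowledge of the ribosome. Lists are described by counts and medians and were not tested. Promoter sequences are from RefSeq.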

Additional observations from a re-analysis of the deposited data

Results flagged for a closer look

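Of 116 checks of whether 1 array stood apart within its group, 6 did, where chance flags about 1 in 20. The family mean of FXR BAT 5 was 8.48, below the other FXR BAT arrays at 8.58 to 8.62. In WAT, Mrpl27 on FXR WAT 1 read 7.40, above 7.26 to 7.27 on the other FXR arrays, and Mrps18b on FXR WAT 1 read 7.57, above 7.12 to 7.17. Mrpl3 on control WAT 1 read 6.84, below 6.93 to 6.94 on the other controls. Mrpl21 on control WAT 4 read 6.60, above 6.33 to 6.37, and Mrps23 on control WAT 3 read 6.97, above 6.91 to 6.92.

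The named members were picked partly by this same difference and partly by their BAT p, so their count is no separate result. Of 28 named members, 12 passed for the WAT change minus the BAT change in limma's interaction test, beside 4.44% of all genes in the positive direction. Besides Mrpl4 (0.37), Mrps33 (0.46), Mrpl34 (0.45), Mrps23 (0.41) and Mrps36 (0.39), these were Mrpl18 (0.39), Mrpl10 (0.27), Mrpl27 (0.22), Mrps2 (0.26), Mrps18a (0.44), Mrpl51 (0.39) and Mrpl16 (0.32). Mrpl18 changed by 0.071 in WAT and -0.32 in BAT, Mrpl51 by 0.039 and -0.36, and Mrpl16 by 0.12 and -0.20. Mrpl10, Mrpl27, Mrps2 and Mrps18a had WAT changes of -0.055, -0.015, -0.059 and -0.094, smaller in size than their BAT changes of -0.32, -0.24, -0.32 and -0.53.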

How the results depend on the processing

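Other settings were a pseudocount of 16, centring on the array median, quantile normalization (all arrays, or within a tissue), the mean of a gene's probe sets, genes above the median level only, 1 fit over all arrays, an intensity trend with a robust prior, a replicate block, and arrays left out. The tissue difference of Mrps6 reversed: between the control tissues it was -0.11 centred and -0.91 after quantile normalization of all arrays, and between the FXR tissues -0.25 and -0.86. Centring gave median changes of -0.28 in BAT and 0.25 for the difference of changes (29 members higher). Quantile normalization of all arrays gave 25 lower members and a median of -0.13 in BAT, 1 lower member in WAT, and 0 members and a median of 0.092 for the difference. Within each tissue it gave 26 lower members and -0.14 in BAT (6.55% of all genes lower), and 2 lower members in WAT (0.592%). For the difference it gave 5 members and 0.11 (2.97% of all genes positive). Without control BAT 2 and 4, 16 members were lower in BAT, with a median of -0.19. The trend gave 12 members for the difference (3.61% of all genes positive and 1.93% negative), and leaving out FXR BAT 1, 2 and 4 a median of 0.23. Between control tissues the median was 1.83 with the pseudocount of 16, 1.32 centred, 0.74 quantile normalized (1 member lower) and 1.89 over the mean of probe sets. Between FXR tissues these were 1.68, 1.10 (1 lower), 0.70 (1 lower) and 1.76. The causes of these shifts were not tested.

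Leaving out 1 array at a time gave 35 to 49 lower members in BAT (median -0.22 to -0.18), beside 6.13% to 10.3% of all genes. It gave 0 in WAT (-0.036 to -0.0063). For the difference 11 to 22 members were higher (0.16 to 0.21), beside 3.14% to 5.36% of all genes. All 77 were higher between control tissues (1.96 to 2.00) and between FXR tissues (1.78 to 1.85), as were 94.2% to 94.6% and 94.5% to 95.5% of all genes. Of the 48 BAT calls 33 held in every such fit. Replicate numbers were not taken as pairs, which needed every correlation above 0.1: deviations of same-numbered FXR and control arrays correlated at -0.493 to 0.276 within BAT, and from 0.00853 to 0.157 within WAT. The replicate block gave 46 lower members in BAT (8.03% of all genes lower), 0 in WAT (0.512%) and 20 for the difference (4.14% of all genes positive). Between tissues, same-numbered BAT and WAT arrays correlated at 0.0589 to 0.134 with FXR and -0.0826 to 0.256 in controls. The same number was best for 3 of 4 in each, a hint from the data and not from the design. The block gave 77 members higher in both, as were 94.7% of all genes between control tissues and 94.8% between FXR tissues. The number of arrays and, in WAT, signal near background limit what small changes can show.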
